A study of Homo sapiens with 132 samples.

Results

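Untreated NCI-N87 cells (named N87 in the labels) were compared with untreated MKN7 cells across all genes. The comparison used every library labelled as untreated from both lines, which gave 6 libraries of N87 and 6 of MKN7, or 12 of the 132 libraries of the series. The study treated 4 gastric cancer cell lines with antibodies and a kinase inhibitor against the HER family of receptors and measured the mRNA by RNA sequencing. It described NCI-N87 as responding to trastuzumab and MKN7 as not responding, and the comparison asks how their transcriptomes differed when no drug was given. Both lines were established from metastases of gastric carcinomas.

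For each line there were 3 libraries at 4 h and 3 at 24 h. All were grown in RPMI medium with 10% FCS, seeded in dishes the day before, and given new medium 2 h before the time course began. The untreated cells received no solvent. N87 was plated at a somewhat higher density than MKN7. Each line is a single line in culture, and nothing in the labels says that replicates came from separate cultures. The p-values therefore measure the spread between these libraries, which may be technical, and concern these lines, not gastric cancers that do or do not respond to trastuzumab. Line and plating density cannot be told apart, and neither can the amount of RNA of a gene per cell and the share of cells that express it.

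ERBB2 (HER2) is a receptor tyrosine kinase without a known ligand of its own. It signals by pairing with EGFR, ERBB3 or ERBB4, which bind EGF-like ligands and neuregulins. In a part of gastric cancers the gene is amplified together with its neighbours on the long arm of chromosome 17, and the antibody trastuzumab binds the protein on the cell surface. Gastric cancers also differ in how far their cells keep the gene programmes of stomach, intestine or squamous epithelium.

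Total counts lay between 40310266 and 55120097 per library. Levels are given as CPM, the count relative to the library total after TMM scaling, as the lowest, median and highest of the 6 libraries of a line. Differences are log2 fold changes (log2FC) of N87 over MKN7 with time as a covariate, with standard error (SE). A gene was called when the Benjamini-Hochberg adjusted p of edgeR's quasi-likelihood test was below 0.05 and the absolute log2FC was above 1.

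The epithelial markers were high in both lines. The cell adhesion genes EPCAM (median 488 CPM in N87 and 600 CPM in MKN7) and CDH1 (255 and 240 CPM) were not called, with log2FC of -0.28 and 0.06, and their ranges overlapped. The keratins KRT8, KRT18 and KRT19 were higher in N87, and the summed level of the 5 epithelial markers was 17017 to 20165 CPM in N87 and 5667 to 6651 CPM in MKN7. The 8 fibroblast markers summed to 12.3 to 18.6 CPM in N87 and 9.62 to 20.8 CPM in MKN7, and the median of COL1A1 alone was 14.1 and 13.8 CPM. The 8 leukocyte markers summed to 4.53 to 5.84 and 1.61 to 3.60 CPM, with CD68 at 0 in all 12 libraries. The 6 endothelial markers reached at most 3.49 CPM in either line. The 6 neuroendocrine markers summed to 1.26 to 1.84 CPM in N87 and 5.65 to 8.21 CPM in MKN7, with NEUROD1 at 0 throughout.

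Close to every second gene differed between the lines. Of 18024 genes tested, 8248 were called (45.8%), 4115 of them higher in N87 (22.8%) and 4133 higher in MKN7 (22.9%). The counts for gene lists below are to be read against these shares. By the adjusted p alone 82.1% passed, and of 13844 protein-coding genes 42.4% were called. The median absolute log2FC over all genes tested was 0.90, and 1084 called genes had an absolute log2FC above 5. The libraries of the lines did not overlap for 64.9% of the genes tested and for 7677 of the called genes. The sample numbers form 2 series, with replicate 1 of both lines in the first and replicates 2 and 3 in the second. Within the second 8163 genes were called. The first held only 1 library for each line and time, too few for a count. The first principal component held 91.3% of the variance and separated the lines. In protein-coding genes, 9026 had a mean of at least 1 FPKM (CPM per kilobase of exon) in both lines, 863 in N87 alone and 833 in MKN7 alone.

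**Figure D1:**
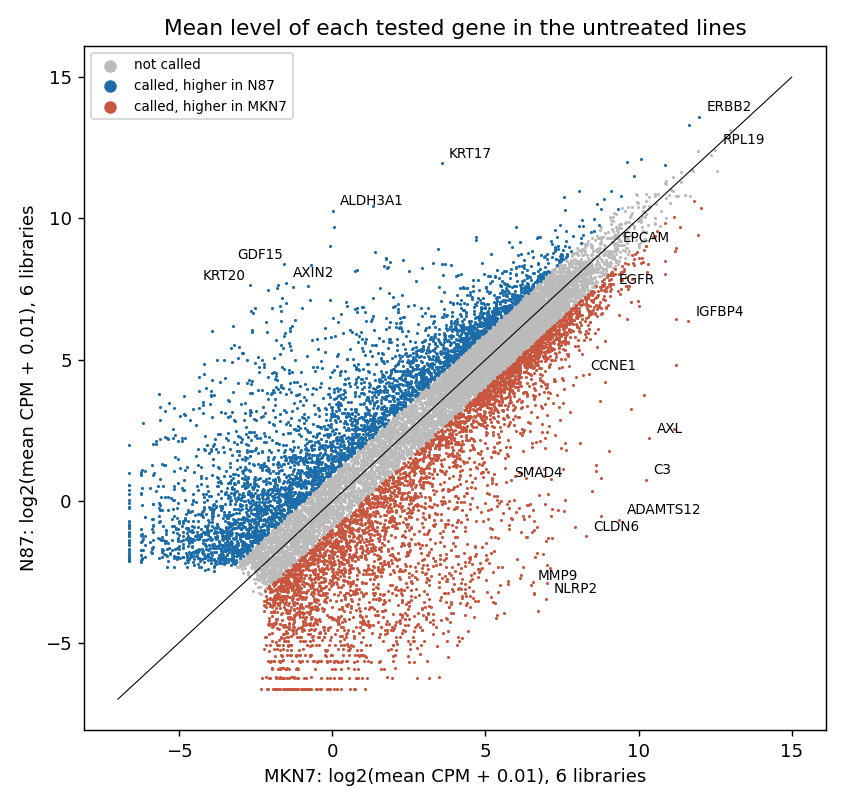
Mean level of each tested gene in untreated MKN7 (x axis) and N87 (y axis), as log2 of the mean CPM of 6 libraries plus 0.01, with the line of equal levels. Called genes are blue where higher in N87 and red where higher in MKN7. KRT17, ALDH3A1 and KRT20 lie far above the line and C3, ADAMTS12 and NLRP2 far below it, while RPL19 lies on it.

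Of the 10 protein-coding genes with the highest FPKM in each line 5 were common to both. RPL19, a ribosomal protein gene that lies near ERBB2, had the highest FPKM of all protein-coding genes in both lines, with 3144 in N87 and 3300 in MKN7. In N87 it was followed by the keratin gene KRT19 (1897 FPKM), and KRT8 (1476 FPKM) and KRT17 (1263 FPKM) were also among the first 10. In MKN7 it was followed by the actin gene ACTB (1709 FPKM) and by IGFBP4 (1422 FPKM), which encodes a secreted protein that binds insulin-like growth factors and reached 37.5 FPKM in N87. The translation factor gene EEF1A1, the ribosomal gene RPL8, YBX1 and the ferritin gene FTL were the others among the first 10 in both lines.

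All 4 receptors of the HER family were called, 2 in each direction. ERBB2 (chr17:39687914-39730426, GRCh38) had 10729, 11985 and 14424 CPM in N87 and 3497, 3707 and 4924 CPM in MKN7 (log2FC 1.61, SE 0.09, edgeR adjusted p = 2.77e-10). The groups did not overlap, and N87 was 3.06-fold higher. The lines were taken for this comparison as 2 lines with high ERBB2, so their level beside the other lines is not a result. The median in the other untreated lines of the series was 154 CPM in MKN1 and 84.9 CPM in Hs746T. ERBB3, a receptor for neuregulins with little kinase activity of its own, followed ERBB2 at a lower level. It had 63.4, 70.2 and 94.7 CPM in N87 and 25.6, 30.5 and 42.2 CPM in MKN7 (log2FC 1.21, SE 0.09).

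EGFR, the receptor for EGF and related ligands, ran the other way. It had 143, 183 and 222 CPM in N87 and 423, 546 and 677 CPM in MKN7 (log2FC -1.59, SE 0.12), without overlap. ERBB4, the fourth receptor, was at 0.0396, 0.252 and 0.980 CPM in N87 and at 4.74, 6.87 and 10.0 CPM in MKN7 (log2FC -4.26, SE 0.40). The expression of ERBB4 was thus low in both lines beside that of ERBB2, and all 4 receptors were separated between the lines in every library.

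Of the 11 ligand genes 10 were tested, and 4 were higher in N87 and 4 in MKN7. EGF itself was at 2.32, 3.32 and 4.54 CPM in N87 and at most at 0.112 CPM in MKN7 (log2FC 5.65, SE 0.28). NRG4, a neuregulin that binds ERBB4, was at 25.3, 26.1 and 31.3 CPM in N87 and at 0.596, 0.687 and 0.824 CPM in MKN7 (log2FC 5.26, SE 0.11). NRG1, the neuregulin that binds ERBB3 and ERBB4, had a log2FC of 2.79 (SE 0.46) from a median of 1.41 CPM in N87, and EPGN was below 1 CPM in every library. HBEGF, a ligand of EGFR and ERBB4, had 8.94, 10.1 and 12.9 CPM in N87 and 69.2, 96.5 and 131 CPM in MKN7 (log2FC -3.22, SE 0.15), and its groups were far apart.

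The remaining EGFR ligands AREG (log2FC -1.04, SE 0.19), EREG (-1.11, SE 0.17) and TGFA (-1.05, SE 0.08) were higher in MKN7 by close to the threshold. The libraries of the lines overlapped for AREG and EREG but not for TGFA. Without MKN7 24 h replicate 3, AREG (-0.84) and EREG (-0.99) were no longer called, and AREG was not called without N87 24 h replicate 3 either (-1.0). The median level of TGFA was 112 CPM in N87 and 249 CPM in MKN7. BTC (-0.11) and NRG2 (-0.53) were not called.

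**Figure D2:**
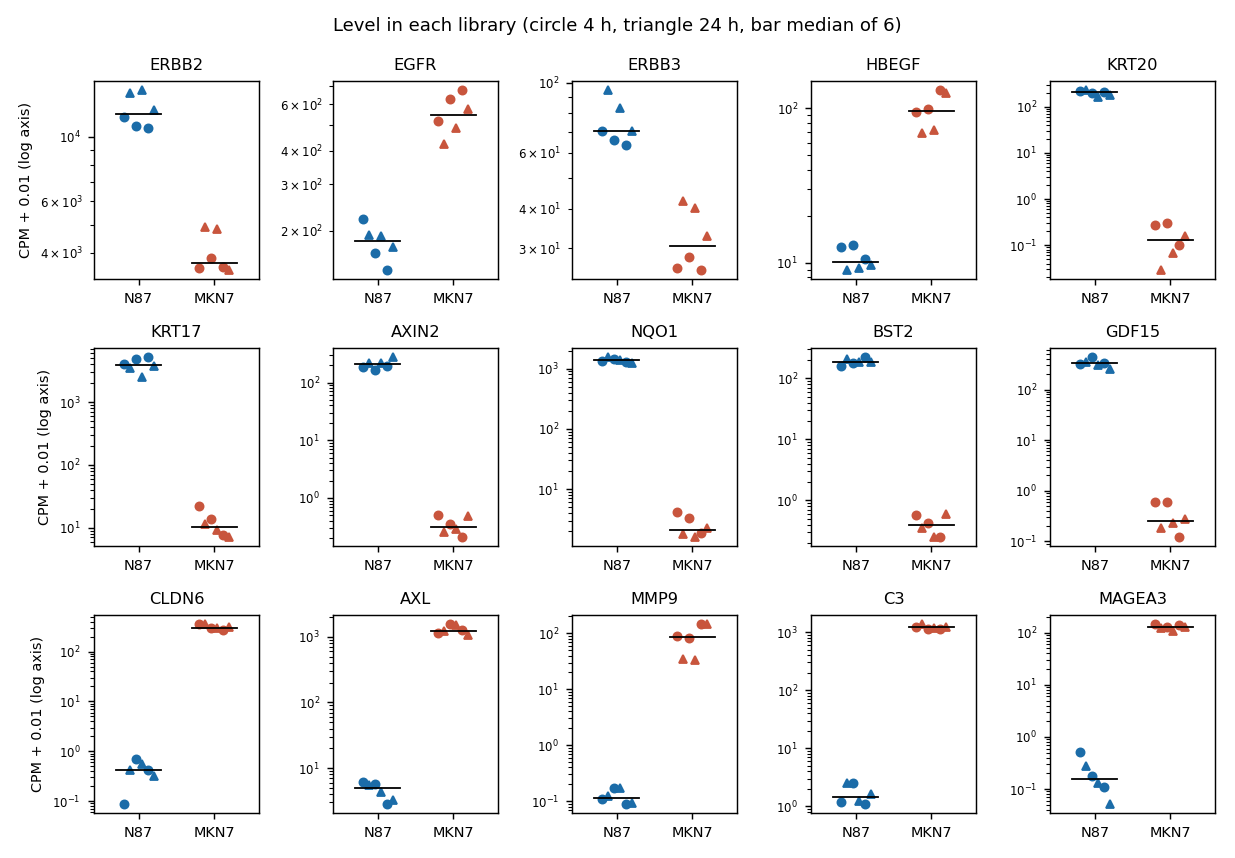
Level of 15 genes in each untreated library, as CPM plus 0.01 on a log axis, with circles for 4 h, triangles for 24 h and a bar at the median of the 6 libraries of a line. The lines do not overlap in any panel; ERBB2, EGFR and ERBB3 differ by about 2- to 3-fold and the other panels by 9-fold or more.

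Among the adaptors and feedback regulators of these receptors, 4 of 20 were higher in N87 and 4 in MKN7, a called share of 40% against 45.8% of all genes. GRB7, an adaptor that binds phosphorylated ERBB2 and lies near its gene, was at 783, 1255 and 1762 CPM in N87 and at 151, 168 and 264 CPM in MKN7 (log2FC 2.71, SE 0.18). GRB10, a related adaptor, was higher in N87 as well (2.23), while the adaptor GAB2 (-2.03) and ERRFI1 (-1.86), an inhibitor of EGFR and ERBB2, were higher in MKN7. These 4 genes were named for their large differences. The lines did not overlap for them, as for 93.1% of all called genes.

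Genes that MAPK signalling induces did not move as one group, with 6 of 24 higher in N87 and 5 in MKN7, a share of 45.8% that equals the background. DUSP4, a phosphatase that switches off MAP kinases, was at 11, 16.4 and 18.9 CPM in N87 and at 160, 191 and 219 CPM in MKN7 (log2FC -3.58, SE 0.12). SPRY2, a feedback inhibitor, was also higher in MKN7 (-2.39). The immediate early genes EGR1 (2.56, SE 0.30) and FOS (2.33, SE 0.34) were higher in N87. In the PI3K pathway 4 of 24 were higher in N87 and 7 in MKN7, a called share that also equals the background. The insulin receptor substrates went in opposite directions, with IRS1 at a median of 164 CPM in N87 and 22.4 CPM in MKN7 (2.91) and IRS2 at 0.251 CPM and 96.1 CPM (-8.61, SE 0.25). The catalytic subunit gene PIK3CD was higher in MKN7 (-3.84) and the regulatory subunit gene PIK3R1 in N87 (1.92).

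Of the other receptor tyrosine kinases 5 of 26 were higher in N87 and 8 in MKN7, a called share of 50% close to the 45.8% of all genes. AXL, the receptor for GAS6, was at 2.83, 4.97 and 6.13 CPM in N87 and at 1069, 1253 and 1580 CPM in MKN7 (log2FC -8.13, SE 0.22). FGFR1, a fibroblast growth factor receptor, was at a median of 0.571 CPM in N87 and 84.4 CPM in MKN7 (-6.94, SE 0.25). NTRK2, a neurotrophin receptor, was at 93.1, 106 and 119 CPM in N87 and at most at 0.393 CPM in MKN7 (8.44, SE 0.11), and FGFR4 was also higher in N87 (2.60). These 4 genes were named for their large differences. The lines did not overlap for them, as for 93.1% of all called genes.

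The genes around ERBB2 were described in order along chromosome 17, with 20 tested protein-coding genes on either side. RPL19, FBXL20, MED1, CDK12 and PPP1R1B lie on 1 side of ERBB2 within 11 genes of it, and none of them was called between the lines. PGAP3, the nearest gene on that side, overlaps the start of ERBB2 in position and was not called either. For MED1 (0.40), CDK12 (0.45) and PGAP3 (0.70) the lines did not overlap and the adjusted p was below 0.05, so that they missed only the fold limit. In the same stretch TCAP (2.69) and PNMT (1.38) were higher in N87, and STAC2 (-3.36) and NEUROD2 (-1.07) in MKN7. PNMT, STAC2 and NEUROD2 had medians below 1 CPM in both lines, and the libraries of the lines overlapped for NEUROD2. MIEN1, the nearest gene on the other side (chr17:39728496-39730787), overlaps the end of ERBB2 in position. It was at medians of only 9.30 CPM in N87 and 1.37 CPM in MKN7 (2.70). How reads in overlapping genes were counted is not known, so its value and that of PGAP3 are uncertain. GRB7 was higher in N87 as well. RPL19 was at a median of 5526 CPM in N87 and 5948 CPM in MKN7, against 943 CPM in MKN1 and 923 CPM in Hs746T. The cyclin-dependent kinase gene CDK12 was at 1731 and 1291 CPM against 169 and 163 CPM, and MED1, a subunit of the Mediator complex, at 907 and 687 CPM against 87.4 and 89.1 CPM. STARD3, a cholesterol transporter of late endosomes, was called just above the threshold (log2FC 1.03), not without N87 24 h replicate 1 (0.96) or replicate 2 (0.998) or MKN7 24 h replicate 2 (0.98). It stood 17.6-fold in N87 and 8.91-fold in MKN7 above the mean of the medians of MKN1 and Hs746T. RPL19, CDK12, MED1 and STARD3 were therefore high in both lines and lower in the other 2. No test was made against the other 2, and the compared lines were chosen for high ERBB2.

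Other neighbours were called too. RPL23, a ribosomal gene at a median of 4036 CPM in N87, was at 759 CPM in MKN7, 660 CPM in MKN1 and 633 CPM in Hs746T (N87 over MKN7 log2FC 2.39, SE 0.12). On the same side PIP4K2B (2.09), CWC25 (2.01) and LASP1 (1.57) were also called, and on the other side PSMD3 (1.26), MSL1 (1.96), CASC3 (1.59), WIPF2 (2.38), CDC6 (1.74) and RARA (2.31). In MKN7 each of these was between 0.519 and 1.17 times the mean of the medians of the other lines. MED24 (0.995), SMARCE1 (0.91) and THRA (-0.22) were not called. RAPGEFL1 had the largest difference among the neighbours of ERBB2 that were higher in N87 (5.65, SE 0.10).

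A few neighbours were higher in MKN7. CACNB1, a calcium channel subunit, was at 77.0 CPM in N87 and 214 CPM in MKN7 against 10.1 CPM in MKN1 and 8.64 CPM in Hs746T (log2FC -1.44, SE 0.07). IKZF3, a lymphoid transcription factor that lies 3 genes from ERBB2, was at 1.37, 2.31 and 2.94 CPM in N87 and at 97.1, 120 and 157 CPM in MKN7 (-5.78, SE 0.17), and IGFBP4 was at 73.0, 81.9 and 91.0 CPM and at 2156, 3414 and 3917 CPM (-5.22, SE 0.16). TOP2A, a DNA topoisomerase gene of dividing cells, was not called (-0.69). DNA copy number was not measured in these files.

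**Figure D3:**
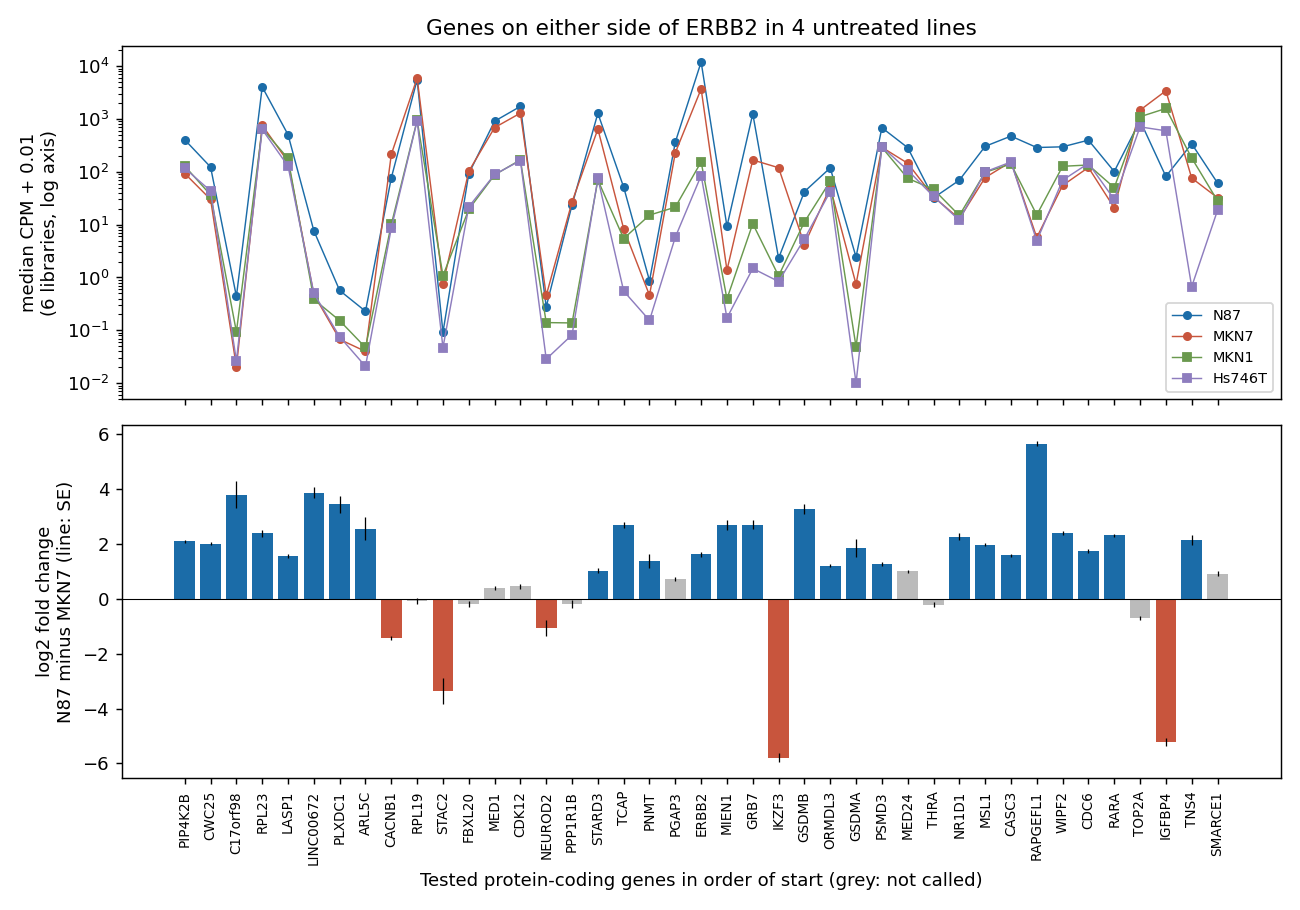
Genes within 20 tested protein-coding genes of ERBB2 in order of their start. The upper panel gives the median CPM plus 0.01 of 6 untreated libraries for each of 4 lines on a log axis, and the lower panel the log2FC of N87 over MKN7 with its SE, grey where not called. RPL19, MED1, CDK12, STARD3 and ERBB2 are high in N87 and MKN7 beside the other lines, RAPGEFL1 has the highest log2FC (5.65), and IKZF3 (-5.78) and IGFBP4 (-5.22) have the lowest.

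Over the genome, neighbouring genes were summarised as 543 blocks of 25 tested protein-coding genes, without a test. The middle part of the block medians lay between -0.49 and 0.50, with 26 blocks above 1 and 40 below -1. Of the 5 highest medians 3 belonged to adjoining blocks on chromosome 17, from PIP4K2B to GSDMB (1.57), from ORMDL3 to KRTAP4-1 (1.84) and from KRTAP9-2 to DHX58 (1.57), which hold the ERBB2 region and the type I keratin genes. The others were on chromosome 12 from ACVR1B to ITGB7 (1.66), which holds the type II keratin genes, and on chromosome 6 from ALDH8A1 to NMBR (1.45).

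The lowest median was on chromosome 11 from TRIM5 to EIF3F (-1.80), with 19 of 25 genes higher in MKN7 and 2 in N87. It was followed by 2 blocks on chromosome 19, from ZNF461 to CATSPERG (-1.73) and from ZNF626 to DPY19L3 (-1.72). The last of these holds CCNE1, which encodes cyclin E1. The fourth was on chromosome 14 from DCAF11 to STXBP6 (-1.62) and the fifth on chromosome 6 from HIST1H2BL to MOG (-1.61).

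Whole chromosomes also leaned to one line. Of the protein-coding genes tested, 21.1% were higher in N87 and 21.3% in MKN7. On chromosome 20 the shares were 12.1% and 43.0%, and on chromosome 14 they were 9.72% and 42.1%. On chromosome 10 they were 35.2% and 9.59%, and on chromosome 12 they were 34.6% and 8.54%.

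**Figure D4:**
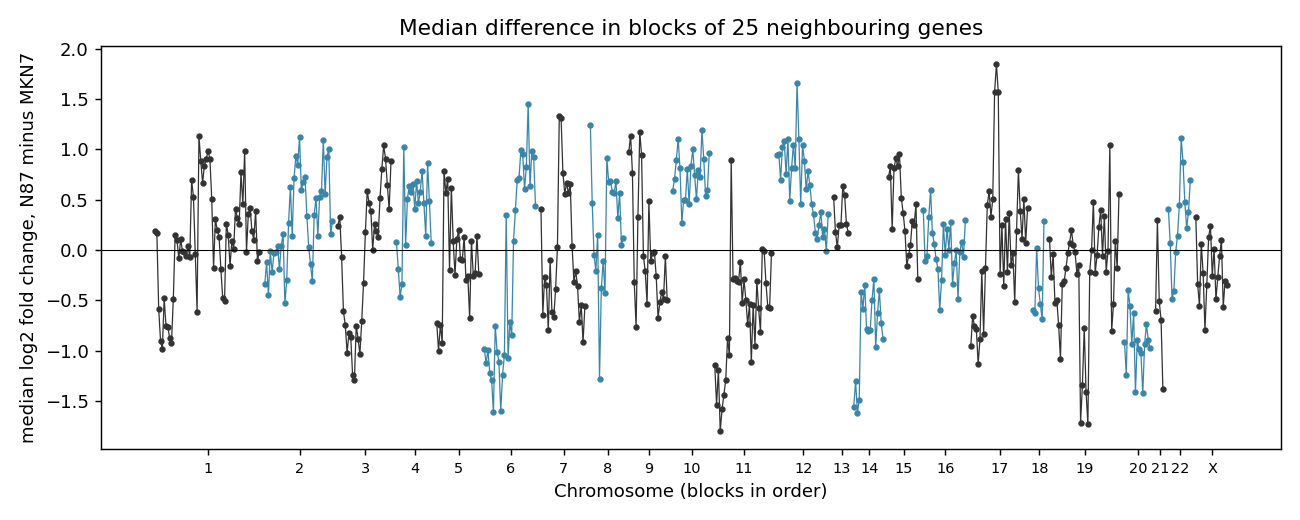
Median log2FC of N87 over MKN7 in blocks of 25 neighbouring tested protein-coding genes, in order along chromosomes 1 to 22 and X, with colours alternating by chromosome. The peak on chromosome 17 reaches 1.84 and the lowest block, on chromosome 11, is at -1.80. Chromosomes 10 and 12 lie mostly above 0 and chromosomes 14 and 20 below it.

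Keratins and squamous epithelial genes were higher in N87 in 20 of 31 and in MKN7 in 4, with a median log2FC of 2.04 against 0.02 over all genes tested. DSG3, a desmosomal cadherin of stratified epithelium, was at 56.3, 62.2 and 76.8 CPM in N87 and at most at 0.112 CPM in MKN7 (log2FC 10.09, SE 0.22). KRT17 was at 2531, 3857 and 5218 CPM in N87 and at 7.11, 10.3 and 22.1 CPM in MKN7 (8.39, SE 0.26). KRT4 (8.16) and KRT13 (7.09), the keratins of stratified mucosa, were lower in level but also without overlap.

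Intestinal epithelium genes were higher in N87 in 17 of 26 and in MKN7 in 4, with a median log2FC of 1.44. The other 23 of the 49 list genes were not tested. Among them CDX1, MUC2, FABP1 and SI had at most 18 counts in any of the 12 libraries, so the count holds only for the tested part. KRT20, a keratin of intestinal and gastric surface cells, was at 164, 204 and 230 CPM in N87 and at most at 0.294 CPM in MKN7 (log2FC 10.49, SE 0.22), which was the largest positive value among called protein-coding genes without overlap and with a mean of at least 20 CPM. The transcription factor gene HNF4A (8.26, SE 0.17) was at a median of 36.7 CPM in N87 and 0.114 CPM in MKN7. The transmembrane mucin gene MUC13 followed at 10.7 CPM in N87 (7.63).

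Gastric epithelium genes were split, with 12 of 23 higher in N87 and 8 in MKN7. The other 11 of the 34 list genes were not tested, among them GKN1, PGC and LIPF with at most 9 counts in any of the 12 libraries. The surface mucin gene MUC5AC was at 86.5, 134 and 167 CPM in N87 and at most at 0.725 CPM in MKN7 (log2FC 8.63, SE 0.28). SOX21 (7.88) and the aquaporin gene AQP5 (6.46) followed at lower levels, and ALDH3A1 is described with the drug-metabolising genes. None of the gastric genes higher in MKN7 was among the 4 with the largest differences.

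Wnt target and stem cell genes were higher in N87 in 12 of 21 and in MKN7 in 5, with a median log2FC of 1.79. AXIN2, a negative regulator that Wnt signalling induces, was at 166, 208 and 277 CPM in N87 and at 0.201, 0.309 and 0.492 CPM in MKN7 (log2FC 9.30, SE 0.16). The receptor gene LGR6 (7.07, SE 0.17) and RNF43 (4.98, SE 0.11), a ubiquitin ligase that removes Wnt receptors, were at medians of 43.4 and 56.6 CPM in N87. MSI1, an RNA-binding protein of stem cells, was higher in MKN7 (-6.48). In the Notch pathway 8 of 22 were higher in N87 and 5 in MKN7, a called share of 59.1% against 45.8% of all genes. The ligand JAG2 (3.37) and the ubiquitin ligase DTX1 (6.47) were higher in N87 and the ligands DLL1 (-5.25) and DLL3 (-5.29) in MKN7.

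**Figure D5:**
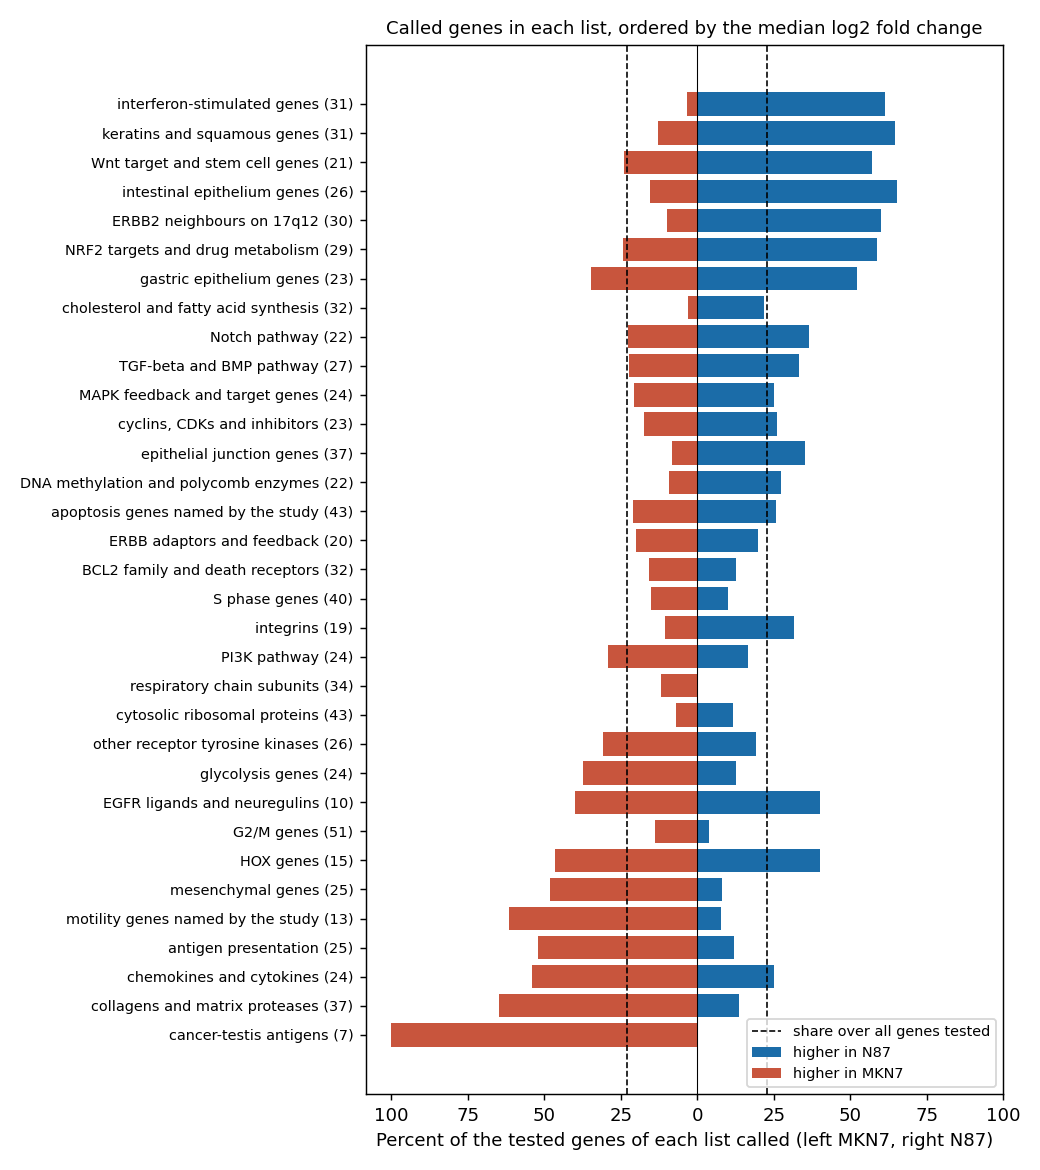
Percent of the tested genes of each list that were called higher in N87 (blue, right) or in MKN7 (red, left), ordered by the median log2FC, with the number of tested genes in brackets and the shares over all genes tested as dashed lines (22.8% and 22.9%). Lists with fewer than 7 tested genes and 1 other list are not drawn.

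Interferon-stimulated genes were higher in N87 in 19 of 31 and in MKN7 in 1, with a median log2FC of 2.22, the highest of the lists drawn. The other 9 of the 40 list genes were not tested, so the count holds only for the tested part. Among them IFIT1, IFIT3, OAS2 and IRF9 were at 0 counts in all 12 libraries. Stretches of 30 bases upstream of 5 of them are given because they hold the letters of the interferon-stimulated response element, TTTC and TTTC with any 2 bases between them, to which the transcription factors of the interferon response bind. They come from RefSeq (GRCh38.p14) and are written 5′ to 3′ on the strand of the gene, with the element on either strand in capitals.
BST2, chr19:17405738-17405767, minus strand: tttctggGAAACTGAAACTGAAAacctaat
IFI27, chr14:94110621-94110650, plus strand: tctgcagTTTCGGTTTCctgGAAAATGAAA
ISG15, chr1:1013377-1013406, plus strand: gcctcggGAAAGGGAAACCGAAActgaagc
ISG20, chr15:88638940-88638969, plus strand: caaactaGAAACTGAAAcagggtcgggatg
IFI44, chr1:78649759-78649788, plus strand: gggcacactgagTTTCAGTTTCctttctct

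On the given strand GAAA and GAAA with 2 bases between them is the same element read from the other strand, and in BST2 and ISG15 2 elements overlap. ISG15, ISG20 and IFI44 were chosen for printing after their values were seen. Within 250 bases upstream of the start, 18 of the 30 list genes with a promoter in the RefSeq table held these letters, against 3.07% of 27305 promoters. Of the 13 tested genes with the element 9 were higher in N87, and of the 11 without it 7 were. A match is a description and not a test of binding.

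BST2 (tetherin), which holds back budding viruses, was at 160, 185 and 224 CPM in N87 and at 0.243, 0.381 and 0.597 CPM in MKN7 (log2FC 8.90, SE 0.17, edgeR adjusted p = 2.01e-15). IFI27 was at 94.7, 135 and 182 CPM in N87 and at 0.318, 0.395 and 1.24 CPM in MKN7 (7.93, SE 0.27). OASL, a relative of the antiviral oligoadenylate synthetases, was at a median of 78.1 CPM in N87 and 2.04 CPM in MKN7 (5.28, SE 0.17), and XAF1 reached at most 2.46 CPM in N87 (6.26). ISG15, a ubiquitin-like modifier, had medians of 103 and 14.3 CPM (2.81), and ISG20 (4.36) and IFI44 (4.12) also did not overlap. MX2 was the gene of this list that was higher in MKN7 (-1.80).

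Antigen presentation genes went the other way, with 13 of 25 higher in MKN7 and 3 in N87 and a median log2FC of -1.32. The other 4 of the 29 list genes were not tested, so the count holds only for the tested part. Of these HLA-B, TAP1 and TAP2, which serve class I presentation, were at 0 counts in all 12 libraries. The class II gene HLA-DPB1 was at 4.58, 5.65 and 6.96 CPM in MKN7 and at most at 0.0420 CPM in N87 (log2FC -8.26, SE 0.27), and HLA-DPA1 was lower still in level (-5.80). MICB, a stress-induced ligand of natural killer cells, was at a median of 29.9 CPM in MKN7 and 0.782 CPM in N87 (-5.25), and PDCD1LG2, which encodes the checkpoint ligand PD-L2, at 11.8 and 0.190 CPM (-5.76). B2M, the light chain of class I molecules, was higher in N87 (1.58). HLA genes share sequence with each other and their counts are uncertain to that extent.

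Collagens and matrix proteases were higher in MKN7 in 24 of 37 and in N87 in 5, with a median log2FC of -1.83. MMP9, a gelatinase, was at 33.7, 85.9 and 147 CPM in MKN7 and at 0.0792, 0.106 and 0.165 CPM in N87 (log2FC -9.53, SE 0.51). MMP3 (-7.95) and the collagen gene COL4A6 (-6.88, SE 0.10) were also higher in MKN7, whereas MMP7, the protease of epithelial cells, was at 1.93 CPM in N87 and at most at 0.0379 CPM in MKN7 (6.71). The matrix protease gene ADAMTS12 was at 567, 645 and 793 CPM in MKN7 and at 0.353, 0.544 and 1.19 CPM in N87 (-10.03, SE 0.22), and the laminin gene LAMA1 was at most at 0.147 CPM in N87 (-8.99).

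Mesenchymal genes were higher in MKN7 in 12 of 25 and in N87 in 2, with a median log2FC of -1.0. COL6A1, a collagen VI chain, was at 427, 514 and 643 CPM in MKN7 and at 0.862, 2.31 and 8.11 CPM in N87 (log2FC -7.26, SE 0.48). The matrix protein gene SPARC (-5.08), COL6A2 (-5.06) and SNAI2 (-5.29), a repressor of epithelial genes, were higher in MKN7 too. VIM, the intermediate filament gene of mesenchymal cells, was below 16 CPM in every library of both lines and was not called (-0.01). Of the epithelial junction genes 13 of 37 were higher in N87 and 3 in MKN7, a called share of 43.2% against 45.8% of all genes. The claudin genes CLDN6 and CLDN1 were higher in MKN7, CLDN6 with 267, 303 and 360 CPM against 0.0784, 0.416 and 0.696 CPM in N87 (-9.56, SE 0.23) and CLDN1 with a median of 91.5 against 0.634 CPM (-7.30). EVPL, which encodes the desmosomal protein envoplakin, was higher in N87 (5.36), as was the transcription factor gene GRHL3 (3.56).

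The study named 14 genes in connection with cell motility, chosen for their response to afatinib in libraries of this series, so that they are not an independent list. Of the 13 tested, 8 were higher in MKN7 and 1 in N87. F3, which encodes tissue factor (log2FC -2.95), the transcription factor gene ETS1 (-2.67), CYR61 (-2.05), SPRY2 and HBEGF were among those higher in MKN7. HAS2, a hyaluronan synthase, was the member higher in N87, with a median of 14.4 CPM against 0.0495 CPM (7.91, SE 0.27).

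PTGS2 (-1.20), which encodes cyclooxygenase 2, and the chemokine gene CXCL8 (-1.11) overlapped between the lines, and neither was called without MKN7 24 h replicate 3 (both -0.95), CXCL8 also not without MKN7 4 h replicate 1 (-0.98). CXCL1 (-0.67), ITGA2 (-0.75), F2RL1 (-0.73) and PLPP3 (-0.59) were not called, but CXCL1 was called without N87 24 h replicate 1 (-1.06). Over chemokines and cytokines as a whole 13 of 24 were higher in MKN7 and 6 in N87. The interleukin genes IL6 (-8.60, SE 0.35) and IL24 (-8.31, SE 0.52) were at medians of 14.1 and 33.9 CPM in MKN7 and at 0.0379 and 0.0994 CPM in N87.

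Genes induced by the transcription factor NRF2 and other drug-metabolising genes were higher in N87 in 17 of 29 and in MKN7 in 7, with a median log2FC of 1.13. The other 11 of the 40 list genes were not tested, among them AKR1C1, SRXN1, GSTA1 and GSTM1 at 0 counts in all 12 libraries. The members named next were chosen for their large differences, and none of the 7 higher in MKN7 is among them. NQO1, a quinone reductase, was at 1229, 1372 and 1564 CPM in N87 and at 1.59, 2.05 and 4.20 CPM in MKN7 (log2FC 9.15, SE 0.22). The aldehyde dehydrogenase genes ALDH3A1 (10.31, SE 0.45) and ALDH1A1 (9.67, SE 0.40) had medians of 1243 and 820 CPM in N87 and of 0.957 and 0.906 CPM in MKN7. CYP1B1, a cytochrome P450, was at 163 CPM in N87 and 0.273 CPM in MKN7 (9.33).

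The stress cytokine gene GDF15 was at 250, 330 and 442 CPM in N87 and at 0.112, 0.246 and 0.596 CPM in MKN7 (log2FC 10.03, SE 0.23).

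Among the cell cycle genes most were not called. Of the S phase genes 4 of 40 were higher in N87 and 6 in MKN7, a called share of 25%. Of the G2/M genes 2 of 51 were higher in N87 and 7 in MKN7, a called share of 17.6%, against 45.8% of all genes. AURKB (-2.03), UBE2C (-1.86) and AURKA (-1.65), which act in mitosis, were higher in MKN7, and MKI67 was not called (0.90). CCNE1 was at 184, 312 and 376 CPM in MKN7 and at 20.1, 21.7 and 24.4 CPM in N87 (log2FC -3.71, SE 0.15), and MYCL was also higher in MKN7 (-3.10). The inhibitor gene CDKN2C (2.05) and the cyclin gene CCND3 (1.68) were higher in N87, and the cyclin gene CCND1 in MKN7 (-1.61).

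In the TGF-beta and BMP pathway 9 of 27 were higher in N87 and 6 in MKN7, a called share of 55.6% against 45.8% of all genes. SMAD4, the shared mediator of both branches, was at 0.949, 1.67 and 1.96 CPM in N87 and at 47.5, 50.7 and 56.9 CPM in MKN7 (log2FC -5.01, SE 0.13, edgeR adjusted p = 3.07e-14). The ligand BMP2 (6.28) and the receptor gene BMPR1B (4.62) were higher in N87, and NOG, an antagonist of BMPs, in MKN7 (-4.24).

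All 7 cancer-testis antigen genes that were tested were higher in MKN7. MAGEA3 was at 107, 129 and 147 CPM in MKN7 and at most at 0.509 CPM in N87 (log2FC -9.31, SE 0.23), and MAGEA6 (-9.70), MAGEC2 (-9.36) and SPANXB1 (-8.26) followed. MAGEA3 and MAGEA6 are nearly identical in sequence, so that the split of reads between them is uncertain. The other 32 genes of that list were not tested, and with at least 10 counts in every library 0 of the 7 remained, so that the count holds only for genes that passed the filter through MKN7.

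Outside the lists, genes with the largest differences in MKN7 included NLRP2, an inflammasome component, at 116, 126 and 142 CPM and at most at 0.256 CPM in N87 (log2FC -10.51, SE 0.26). The complement genes C3 and CR2 were higher in MKN7, C3 with 1118, 1206 and 1387 CPM against 1.09, 1.42 and 2.49 CPM (-9.49, SE 0.22) and CR2 with a median of 96.2 CPM against 0.0887 CPM (-9.93, SE 0.15). EDNRB, an endothelin receptor (-9.55), SLC7A10, an amino acid transporter (-9.53), and BASP1 (-9.29) were of the same order. In N87 they included FOXJ1, the regulator of motile cilia (9.62), SULT2B1, a sulfotransferase (9.35), and USH1C (9.25).

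Of the respiratory chain genes 4 of 34 were called, all higher in MKN7, among them NDUFV1 (-2.0) and UQCRFS1 (-1.67). Of the ribosomal protein genes 5 of 43 were higher in N87, among them RPL23 and RPL22L1 (3.07), and 3 in MKN7, among them RPLP2 (-1.92). Of the glycolysis genes 9 of 24 were higher in MKN7 and 3 in N87, a called share of 50% against 45.8% of all genes. LDHA, lactate dehydrogenase A, was at 2782, 4065 and 4269 CPM in MKN7 and at 602, 691 and 756 CPM in N87 (-2.5, SE 0.11), and GPI was higher in MKN7 as well (-2.36). The lactate exporter gene SLC16A3 was higher in N87 (3.22). Of the genes of cholesterol and fatty acid synthesis 7 of 32 were higher in N87 and 1 in MKN7, led by ACSL1 (3.93) and FDFT1 (2.31). Their called share of 25% was below that of all genes.

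At 4 h 8366 of 18430 genes were called (45.4%) and at 24 h 8494 (46.1%), and 7224 genes were called in the same direction at both. The test of whether the difference changed between 4 h and 24 h called 0 of 18430 genes with edgeR (smallest adjusted p = 0.0523), with 2327 genes at an unadjusted p below 0.05, and DESeq2 called 104. Within a line the 4 h and 24 h libraries of the same number deviated together, and with a replicate block within each line 131 of 18978 genes were called (0.69%), 31 of them with a larger log2FC of N87 over MKN7 at 24 h. Without MKN7 24 h replicate 3 the test without the block called 111 genes, without N87 4 h replicate 1 it called 22, and without N87 4 h replicate 2 or MKN7 4 h replicate 3 it called 1 each.

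Libraries of both lines treated with 5 µg/ml trastuzumab for the same times gave a second set of 12 libraries. The study found no gene regulated by trastuzumab at its criteria, so this set is close to a repeat measurement and not independent support. In these 8284 of 18016 genes were called between the lines (46.0%). The same direction was called for 7721 genes, which is 93.6% of the calls in the untreated libraries and 93.2% of those in the treated ones, and 0 genes were called in opposite directions. ERBB2 (log2FC 1.51) and EGFR (-1.53) differed there by about as much as without treatment.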

How the data were processed

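Libraries of poly(A) RNA were prepared with a directional kit. For each library the authors deposited unnormalised read counts by Ensembl identifier, on hg38 per the labels. The submitters' processing notes name Trim Galore and STAR, and the counting program, its version and its use of strand were not given in the sources used here. Of 65217 identifiers, 8404 were not in GENCODE 29, and they held 0.0487% of the counts. Counts were tested in R 4.3.3 with edgeR 4.0.16 (TMM, filterByExpr at min.count 10 and min.total.count 15, glmQLFit, glmQLFTest), with line and time as terms. DESeq2 1.42.0 was an alternative. The SE was the absolute log2FC over the square root of F. FPKM used the exon length of GENCODE 29. The steps were tested on simulated data.

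The members, lists and tests were chosen with earlier results of these data known. Of 1112 genes in 40 lists, 890 were tested, and 87 of the others were at 0 in all 60 libraries read, among them SMC4 and HLA-B, which dividing or nucleated cells use, so that a 0 does not show that a gene was silent. From each list up to 4 called genes with the largest absolute log2FC and a mean of at least 1 CPM in the higher line were named, with all HER receptors, their ligands and the motility genes, the 15 largest differences each way at 20 CPM or more without overlap, and the 10 highest FPKM values of each line. MX2, B2M, CCND1, MKI67, VIM, ISG15, ISG20 and IFI44 were added after their values were seen. Some genes and 1 list are not reported here. Deviations of same-numbered 4 h and 24 h libraries of a line correlated at 0.25 to 0.58 in 6 pairs, and those of same-numbered libraries of both lines at the same time at -0.18 to 0.23 in 6 pairs. A count of 3 corresponded to 0.0544 to 0.0744 CPM. Replicates differed by at least 19.3 times the Poisson variance on average, and 0 libraries were identical.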

Additional observations from a re-analysis of the deposited data

Results flagged for a closer look

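With the replicate block within each line, an alternative chosen after seeing the data, the difference between the lines changed between 4 h and 24 h for 131 genes, and the 3 largest and 3 smallest values among protein-coding genes with a mean of at least 5 CPM are given here as the change in log2FC of N87 over MKN7 from 4 h to 24 h. GSPT2 (-2.59, SE 0.57, edgeR adjusted p = 0.0307) was at 24.5 CPM at 4 h and 24.2 CPM at 24 h in MKN7, and at 0.175 and 0.0268 CPM in N87. GNGT1 (-1.99, SE 0.43) was at 15.7 and 22.2 CPM in MKN7 and at 0.204 and 0.071 CPM in N87. JPH2 (-2.20, SE 0.43), a protein of junctional membranes in muscle, had 47.3 ± 7.54 CPM (SD, n = 3) at 4 h and 112 ± 40.5 CPM at 24 h in MKN7. In N87 its means were 0.546 CPM at 4 h and 0.268 CPM at 24 h.

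MUC5AC (1.87, SE 0.35), IGSF9B (1.65, SE 0.36) and ACTL8 (1.46, SE 0.34) were abundant in N87 at both times, MUC5AC with 121 ± 29.9 CPM at 4 h and 138 ± 27.7 CPM at 24 h (SD, n = 3). In MKN7 the means at 4 h and 24 h were 0.523 and 0.162 CPM for MUC5AC, and 0.406 and 0.162 CPM for IGSF9B. For ACTL8 they were 0.876 and 0.329 CPM. Most of the change in log2FC of these genes thus lay in low levels in MKN7. Without the block the adjusted p of edgeR was above 0.05 for all 6 genes, from 0.125 for IGSF9B to 0.312 for GNGT1.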

How the results depend on the processing

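The counts of called genes between untreated lines, at 4 h, at 24 h and in treated libraries stayed within 1.5 times of the reported values under every alternative but 1. With at least 10 counts in every library they were 4964, 5033, 5027 and 4999. That setting tested 13808 genes for the first 3 counts and 13791 for the last. It left out every gene below 10 counts in any library, also where the other line was high. The change of the line difference with time was called for 0 genes as reported, for 104 with DESeq2, 127 without a filter, 3 with at least 10 counts in every library, 42 with the replicate block across lines, 89 with all 48 libraries in 1 fit, 131 with the replicate block within each line and 0 to 111 without 1 library, and the cause was not tested. The replicate block across lines, whose numbers do not pair the lines, gave 8517 called genes. The highest block median was 2.75 with 15 genes and the lowest -4.24, and with 50 genes the lowest was -1.57. Summing the 4 h and 24 h libraries, chosen after seeing the data, kept 98.0% of the calls. Of the called genes checked, AREG, EREG, TGFA, CXCL8, PTGS2, STARD3, STARD4, ACTG1, NEUROD2 and PNMT were among those that fell below the threshold in at least 1 alternative, all with their direction kept, and CXCL1, MED24, RPS12 and RPS21 passed it in at least 1. At this depth 0.0544 to 0.0744 CPM is 3 counts, so that the largest fold changes rest on few counts in the lower line.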

Other observations

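Of the genes called at both times, 3 had opposite directions, named here after their values were seen. LINC00486, a long non-coding RNA, was at 127 CPM in N87 4 h replicate 3 and at 236 CPM in MKN7 24 h replicate 3, and at 0.0948 to 0.421 CPM in the other 10 libraries. ODAM and SMOC2 had a mean below 0.4 CPM in both lines.

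For 8 protein-coding genes with a log2FC above 8, a mean of at least 50 CPM in N87 and less than 5 CPM in every library of MKN1 and Hs746T, the summed level in MKN7 libraries was 0.0481% to 0.226% of that in N87. For 7 such genes of MKN7 the level in N87 libraries was 0.0848% to 0.239% of that in MKN7. The source of these counts was not tested.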
